A study of Homo sapiens with 4 samples.

Results

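The 10 circadian clock genes PER1, PER2, PER3, CRY1, CRY2, ARNTL, CLOCK, NR1D1, NR1D2, and DBP were compared between 24 h and 6 h of BLU6864 in TPC1 cells. They were taken from the deposited gene table by their symbols, and all 10 of 10 were found once among its 20372 genes and passed the filter on low counts. TPC1 is an established line of human papillary thyroid cancer cells with a CCDC6-RET fusion, and BLU6864 is a selective RET inhibitor. There were 4 libraries, with 2 at 6 h (BLU6H) and 2 at 24 h (BLU24H), and each came from treated cells grown in DMEM with serum. The labels give a dose of 100 µM, the methods 100 nM, and both 24 h libraries are labelled as a re-analysis, which cannot be told apart from time. Vehicle-treated libraries were not analysed here, so the inhibitor, time in culture, and the phase of the clock cannot be told apart. Nothing states whether the libraries of a time point came from separate cultures, so P values measure only the spread between these libraries, which may be technical.

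The circadian clock is a loop of transcription factors that runs in most cells of the body. CLOCK and ARNTL (also called BMAL1) form the activator, which binds E-boxes in the promoters of the PER, CRY, NR1D, and DBP genes. PER and CRY proteins then block that activator, while the nuclear receptors REV-ERBα (NR1D1) and REV-ERBβ (NR1D2) repress ARNTL through ROR elements. DBP carries the rhythm onward by binding D-boxes. In culture, the cells of a dish keep separate phases unless a stimulus such as fresh serum aligns them.

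Total counts lay between 23917056 and 27457040 per library. PAX8, a thyroid lineage factor, had between 19124 and 22978 counts, whereas the thyroid genes NKX2-1 and TSHR had 0 counts in all 4 libraries. Of the 6 white blood cell markers looked at, none (0) had more than 5 counts in any library. The 6 h replicate 2 library stood apart in its mitochondrially encoded genes, which took 2.43% of its counts against 1.40% to 1.65% in the other 3 libraries. All 15 of 15 proliferation markers fell between the time points, at a median log2 fold change of -4.19, with summed normalized counts of 64994 and 65722 at 6 h against 5194 and 5198 at 24 h. The part of this fall in the clock gene results was not tested.

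Clock gene RNA was lower at 24 h than at 6 h. Of the 10 genes, 8 fell, namely CLOCK, ARNTL, PER1, PER2, CRY1, NR1D1, NR1D2, and DBP, and 0 rose. PER3 and CRY2 were not called, the count of genes higher was also 0 at an unadjusted P under 0.05, and DESeq2 called 0 higher. With the replicate number as a block, however, PER3 was called higher (edgeR adjusted P = 0.0392). A gene was called at a Benjamini-Hochberg adjusted P under 0.05 from edgeR's quasi-likelihood test, adjusted over all 12876 genes tested. Over all genes tested, 32.6% were called lower and 33% higher in the same way. The median log2 fold change from 6 h to 24 h (log2 change from here on) of the 10 genes was -0.48, against 0.0029 for all genes tested. Together the 10 genes took 233 and 239 counts per 1000000 at 24 h, and 346 and 330 at 6 h. NR1D2 alone held much of this sum, but the share of the other 9 genes was also lower, at 151 and 152 against 206 and 204. Both 24 h libraries lay below both 6 h libraries in 8 of the 10 genes and above them in the other 2, PER3 and CRY2, whereas 40.8% and 41% of all genes tested were separated in these directions.

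**Figure D1:**
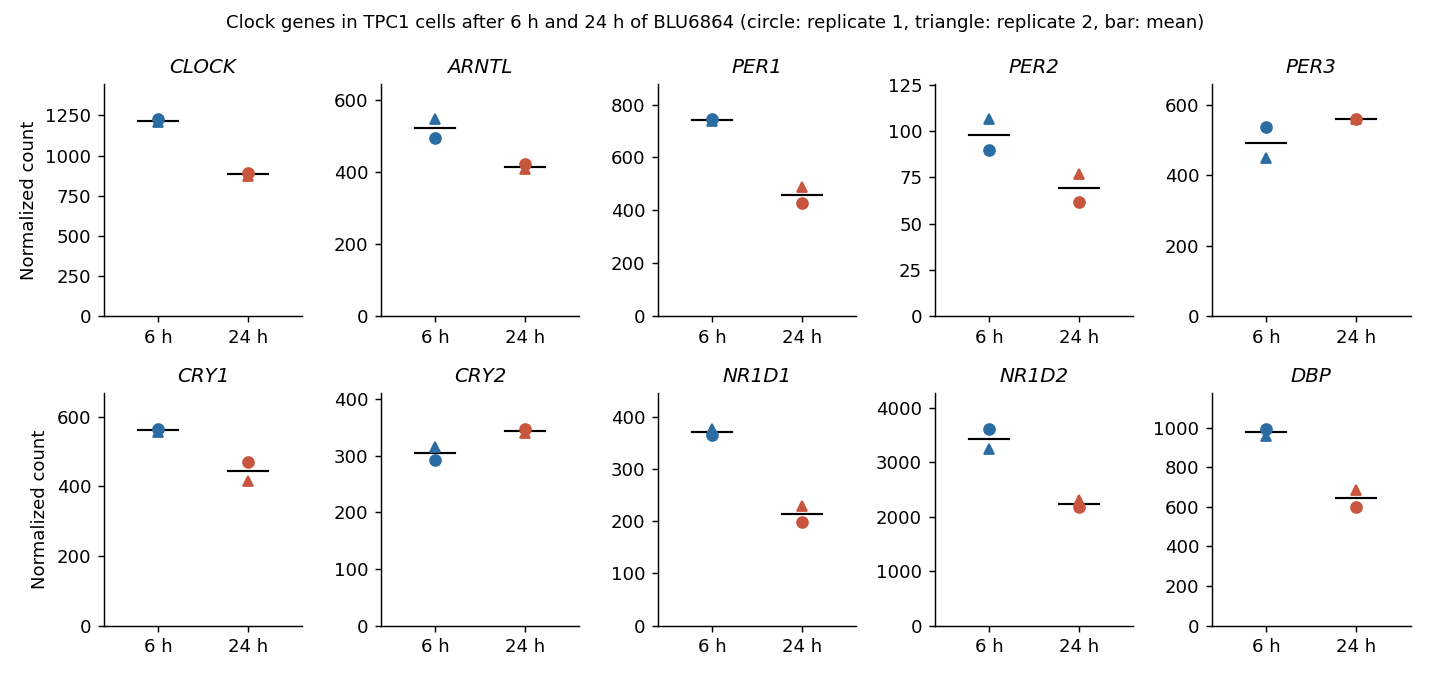
Normalized counts (y axis, from 0) of the 10 clock genes in the 4 libraries at 6 h (blue) and 24 h (red), with the mean of each time point as a bar and an axis of its own for each gene. In PER3 and CRY2 the 24 h points lie above the 6 h points, and in the other 8 genes they lie below.

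The loop is known to act through clock motifs, and whether the matches found here act was not tested. The promoters of 3 of the genes with a match are shown. They are the 250 bases before the RefSeq start, read 5′ to 3′ on the strand of the gene in GRCh38.p14. The motif is in capitals, namely an E-box (CACGTG) and a D-box (TTATGNAA) in PER1, the reverse complement of an E-prime box (CACGTT) in NR1D1, and a D-box in PER3. PER1 and NR1D1 fell, and PER3 did not pass the test. The windows of CLOCK, NR1D2, DBP, and CRY2 held none of the motifs searched for. CLOCK, NR1D2, and DBP fell too, and CRY2 did not pass the test. A link between motif and change was not tested. RefSeq lists chr17:8152405-8152654 on the minus strand for PER1, chr17:40100590-40100839 on the minus strand for NR1D1, and chr1:7784041-7784290 on the plus strand for PER3.
PER1: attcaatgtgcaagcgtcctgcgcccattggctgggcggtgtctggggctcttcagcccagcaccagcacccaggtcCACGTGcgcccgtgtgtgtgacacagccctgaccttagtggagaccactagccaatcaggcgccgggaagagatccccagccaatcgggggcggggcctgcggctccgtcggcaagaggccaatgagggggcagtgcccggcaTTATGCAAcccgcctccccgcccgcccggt
NR1D1: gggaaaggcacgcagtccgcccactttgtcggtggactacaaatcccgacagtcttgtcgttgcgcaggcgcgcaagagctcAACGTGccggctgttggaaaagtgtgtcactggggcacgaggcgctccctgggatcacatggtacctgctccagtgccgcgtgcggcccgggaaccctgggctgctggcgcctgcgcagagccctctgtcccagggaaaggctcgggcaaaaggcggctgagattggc
PER3: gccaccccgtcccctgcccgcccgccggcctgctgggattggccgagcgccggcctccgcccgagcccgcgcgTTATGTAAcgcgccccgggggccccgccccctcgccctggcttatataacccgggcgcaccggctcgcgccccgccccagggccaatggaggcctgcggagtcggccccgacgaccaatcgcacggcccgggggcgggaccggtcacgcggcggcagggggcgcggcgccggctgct

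The E-box of PER1 begins 173 bases before the start and its D-box 30 bases before, while the D-box of PER3 begins 177 bases before. ARNTL holds a ROR element core (TAGGTCA) at 31 bases after its start, shown in capitals within 30 bases at chr11:13277809-13277838 on the plus strand.
ARNTL: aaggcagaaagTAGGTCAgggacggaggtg

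All 10 genes had a promoter in the RefSeq table, where ARNTL is listed as BMAL1. Windows from 250 bases before to 50 bases after the start were searched on both strands, and none of the matches overlapped another. An E-box was found in 1 of the 10 genes, against 7.26% of 35116 promoters of all genes. E-prime boxes were found in PER2, CRY1, and NR1D1, D-boxes in PER1 and PER3, and the ROR element core in ARNTL, against 5.34%, 3.30%, and 1.85% of all promoters. The other form of the ROR element core (TGGGTCA) and the cAMP response element (TGACGTCA) were in 0 of the 10 windows and in 3.92% and 1.85% of all promoters. A match describes these letters in this window only, and genes with other starts may hold more.

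Both genes of the activator fell by a small amount. CLOCK (ENSG00000134852), on chromosome 4 of hg19 from 56294070 to 56413305, had 1226 and 1208 normalized counts at 6 h and 894 and 874 at 24 h. A normalized count is the raw count divided by the TMM-scaled size of its library relative to the mean library. The 24 h libraries were well below the 6 h libraries and lay close together. Its log2 change was -0.46 (standard error 0.0757, edgeR adjusted P = 6.97e-06), so 72.6% of the 6 h level was left. ARNTL (ENSG00000133794), the partner of CLOCK, on chromosome 11 from 13298199 to 13408813, had 494 and 546 normalized counts at 6 h and 422 and 407 at 24 h. For ARNTL the log2 change was -0.33 (standard error 0.0950, edgeR adjusted P = 0.00368). Without the 6 h replicate 2 library, the higher of the 6 h pair, the change of ARNTL was -0.26 and no longer passed, with an edgeR adjusted P of 0.0627. The CLOCK locus shares 25495 bp with TMEM165, a neighbour that had a log2 change of -0.57 and between 5063 and 8025 raw counts. The strand setting of the counting is not given in the sources used here, so reads of overlapping genes cannot be told apart.

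The PER genes, whose proteins carry the repressor complex, did not move alike. PER1 (ENSG00000179094), on chromosome 17 from 8043790 to 8059824, had 745 and 738 normalized counts at 6 h and 427 and 487 at 24 h. The 6 h libraries differed by little, and the fall to 61.7% of their level was far larger than the spread at 24 h. Its log2 change was -0.70 (standard error 0.0907, edgeR adjusted P = 1.92e-07). PER2 (ENSG00000132326), on chromosome 2 from 239152679 to 239198743, was the least abundant of the 10, with 83 and 111 raw counts at 6 h and 62 and 79 at 24 h. These are 89.6 and 106 normalized counts at 6 h and 61.8 and 76.9 at 24 h, and the libraries of each time point were spread widely. Its log2 change was -0.50 (standard error 0.186, edgeR adjusted P = 0.0202), and the call was lost with DESeq2 (adjusted P = 0.122). It was also lost without the 24 h replicate 1 library, at a log2 change of -0.35 (edgeR adjusted P = 0.179), and without the 6 h replicate 2 library, at -0.37 (edgeR adjusted P = 0.189).

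PER3 (ENSG00000049246), on chromosome 1 from 7844380 to 7905237, had 535 and 448 normalized counts at 6 h and 559 and 559 at 24 h. The 24 h pair lay above the 6 h pair, but the 6 h libraries differed more from each other than the nearer one did from 24 h. The log2 change was 0.19 with a 95% interval from -0.01 to 0.39 (edgeR adjusted P = 0.0889). It passed with the replicate number as a block, at 0.19 (edgeR adjusted P = 0.0392), and without the 6 h replicate 1 library, at 0.32 (edgeR adjusted P = 0.0184). Without the 6 h replicate 2 library, the lower of that pair, the log2 change of PER3 was 0.0574 (edgeR adjusted P = 0.681). UTS2, which shares 2095 bp with PER3, had between 370 and 523 raw counts and a log2 change of -0.14 (edgeR adjusted P = 0.240).

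The cryptochromes, the direct blockers of the activator, also differed in their calls. CRY1 (ENSG00000008405), on chromosome 12 from 107385142 to 107487607, had 566 and 556 normalized counts at 6 h and 470.2 and 417 at 24 h. The log2 change of CRY1 was -0.34 (standard error 0.0938, edgeR adjusted P = 0.00255). Without the 24 h replicate 2 library, the lower of that pair, it was -0.25 with an edgeR adjusted P of 0.0558. CRY2 (ENSG00000121671), on chromosome 11 from 45868669 to 45904798, had 293 and 316 normalized counts at 6 h and 348 and 339.6 at 24 h. Its log2 change of 0.17 had a 95% interval from -0.04 to 0.39 and did not pass the test (edgeR adjusted P = 0.147).

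The REV-ERB genes and DBP, all direct targets of the activator, fell with PER1 by the largest amounts among the 10 when all libraries were used. PER2 fell by more than NR1D2 without the 24 h replicate 2 library (log2 changes of -0.66 and -0.65), and by more than NR1D2 and DBP without the 6 h replicate 1 library (-0.62 against -0.53 and -0.58). NR1D1 (ENSG00000126368), on chromosome 17 from 38249040 to 38256978, had 364 and 377 normalized counts at 6 h and 198 and 229.7 at 24 h. With 57.8% of the 6 h level left, its fall was the largest, at a log2 change of -0.79 (standard error 0.113, edgeR adjusted P = 8.44e-07). Over all genes tested, 11.3% had a lower log2 change than NR1D1. The last 1081 bp of NR1D1 overlap THRA, a thyroid hormone receptor gene on the other strand, which had 495 and 614 raw counts at 6 h, 481 and 523 at 24 h, and a log2 change of -0.19 (edgeR adjusted P = 0.0779). NR1D2 (ENSG00000174738), on chromosome 3 from 23986751 to 24022109, was the most abundant of the 10, with 3619.6 and 3241 normalized counts at 6 h and 2174 and 2306 at 24 h. Its log2 change was -0.61 (standard error 0.0741, edgeR adjusted P = 5.19e-08), a difference well beyond the gap between the 6 h libraries. DBP (ENSG00000105516), on chromosome 19 from 49133287 to 49140695, had 995 and 958 normalized counts at 6 h and 601 and 685 at 24 h. DBP had a log2 change of -0.60 (standard error 0.0851, edgeR adjusted P = 7.23e-07). NKIRAS1 and SPHK2, which overlap NR1D2 and DBP by 1332 bp and 688 bp, had log2 changes of -0.17 and -0.14 and did not pass the test, with edgeR adjusted P of 0.127 and 0.209. Of the 10 genes, only NR1D1, PER1, NR1D2, and DBP also met the cutoffs of the study turned to this comparison. These are a log2 change under -0.5 with an unadjusted P under 0.01, which 17.7% of all genes tested met.

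**Figure D2:**
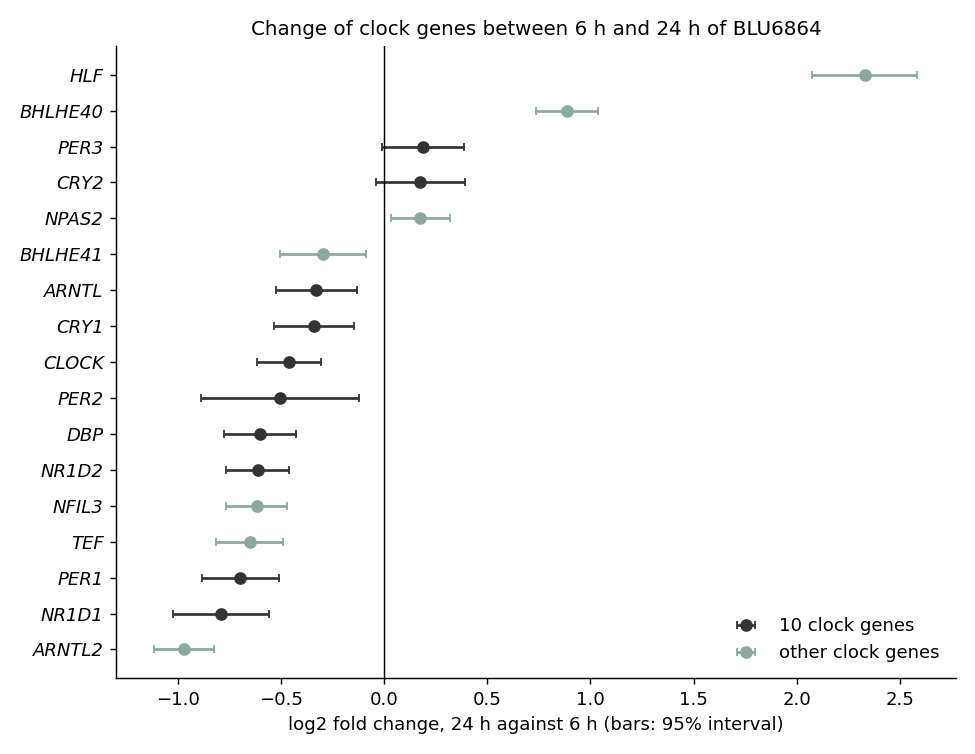
Log2 fold change between 24 h and 6 h (x axis, below 0 is lower at 24 h) of the 10 clock genes (black) and 7 other clock genes (green), with 95% intervals from edgeR. The intervals of PER3 and CRY2 cross 0, and HLF lies apart at 2.33.

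Levels were compared between genes as normalized counts per kilobase of the Ensembl canonical transcript. At 6 h, NR1D2 had 656 ± 51.2 (SD, n = 2) and DBP 450.2 ± 12.02, far above the rest. CRY1 and ARNTL followed with 188 ± 2.18 and 187 ± 13.1, and their libraries overlapped. Below them came PER1 with 159 ± 1.07, NR1D1 with 141 ± 3.56, and CLOCK with 116 ± 1.25. PER3 and CRY2, with 77.3 ± 9.71 and 73.6 ± 3.95, overlapped as well, and PER2 was last with 15.4 ± 1.87. At 24 h, NR1D2 and DBP still led with 428 ± 17.9 and 296 ± 27.5, and PER2 was still last with 10.9 ± 1.67. After NR1D2 and DBP came ARNTL and CRY1 with 149 ± 3.97 and 148 ± 12.7, and their libraries overlapped. Below them, PER1, PER3, CLOCK, CRY2, and NR1D1 lay closer together than at 6 h. PER1 had 97.7 ± 8.95, PER3 87.8 ± 0.0374, and CLOCK 84.4 ± 1.34. CRY2 had 83.2 ± 1.38 and NR1D1 81.4 ± 8.44. The libraries of CLOCK, CRY2, and NR1D1 all overlapped one another there. By its mean, NR1D1 went from the sixth place at 6 h to the ninth at 24 h. These overlaps do not set its place at 24 h apart from those of CLOCK and CRY2.

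Ratios of genes within a library do not depend on how libraries are scaled to each other, and they are given as levels per kilobase with no test, since 2 libraries against 2 cannot give an exact two-sided permutation P below 0.333. The ratio of CRY1 to CRY2 was 2.67 and 2.44 at 6 h, and it was 1.87 and 1.70 at 24 h. The ratio of PER1 to PER3 went from 1.89 and 2.24 to 1.04 and 1.19. Neither ratio overlapped between the time points. Normalized counts of 81.8% of all genes tested did not overlap either, and no such share was worked out for ratios. The ratio of NR1D2 to NR1D1 was 5.002 and 4.32 at 6 h and 5.51 and 5.05 at 24 h, which did not overlap either, though the nearest libraries of the time points were almost level. The ratio of CLOCK to ARNTL was 0.66 and 0.59 at 6 h and 0.56 and 0.57 at 24 h, again without overlap. Its mean was 0.625 at 6 h, with an SD of 0.0504, and 0.568 at 24 h.

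**Figure D3:**
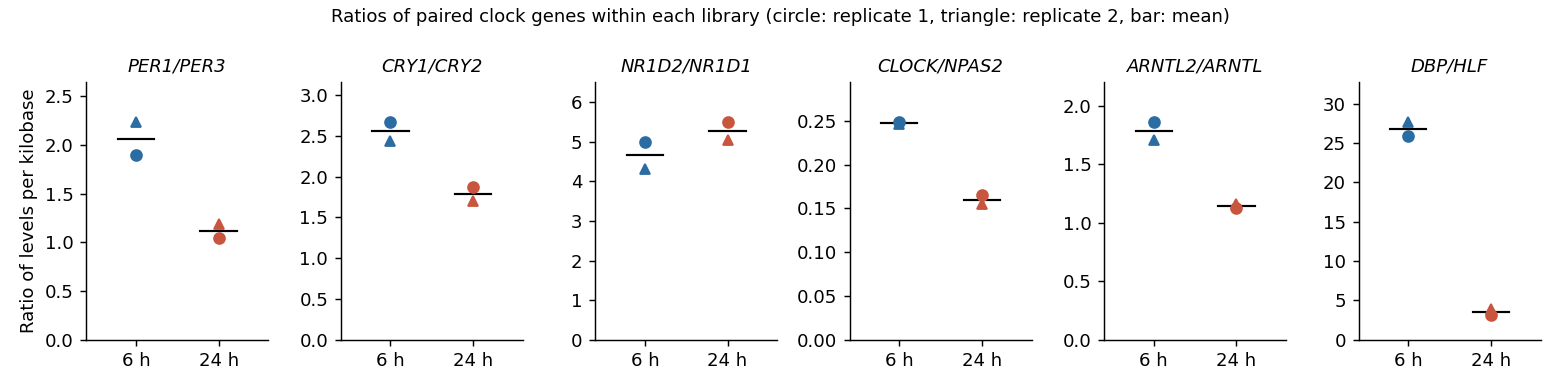
Ratio of levels per kilobase (y axis, from 0) within each library for 6 pairs of clock genes at 6 h (blue) and 24 h (red), with the mean as a bar. The ratio of CRY1 to CRY2 has a mean of 2.56 at 6 h and 1.78 at 24 h, and that of DBP to HLF of 26.8 and 3.52.

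Paralogs of the clock genes are held in the wider lists of 63 other clock genes, of which 62 were in the table and 59 were tested. NPAS2, which can stand in for CLOCK, had 1889 and 1878 normalized counts at 6 h and 2079 and 2170.1 at 24 h. It rose slightly, with a log2 change of 0.17 (edgeR adjusted P = 0.0306), and per kilobase CLOCK was at 0.249 and 0.247 of the NPAS2 level at 6 h and at 0.165 and 0.155 at 24 h. ARNTL2, the paralog of ARNTL, fell with a log2 change of -0.97 (standard error 0.0704, edgeR adjusted P = 3.03e-12). Per kilobase, ARNTL2 was 1.87 and 1.71 times as abundant as ARNTL at 6 h and 1.13 and 1.16 times at 24 h. RORA, an activator of ARNTL, had between 7 and 17 raw counts and was not tested. Its relative RORB fell from 32 and 25 raw counts to 5 and 5, a change that rests on few reads.

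The PAR bZIP factors that bind D-boxes like DBP moved in opposite directions. TEF had 1194 and 1150.3 normalized counts at 6 h and 769 and 723 at 24 h, a log2 change of -0.65 (standard error 0.0789, edgeR adjusted P = 5.60e-08). This is close to the value of DBP. HLF rose 5.03-fold, from 94 and 95 raw counts to 502 and 480, with a log2 change of 2.33 (standard error 0.124, edgeR adjusted P = 4.18e-15). Per kilobase, DBP was 25.9 and 27.7 times as abundant as HLF at 6 h and 3.17 and 3.87 times at 24 h. NFIL3, a repressor at D-boxes, fell with a log2 change of -0.62 (edgeR adjusted P = 3.30e-08), and its ratio to DBP was 5.61 and 5.47 at 6 h and 6.08 and 4.95 at 24 h, which overlap.

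In the negative arm outside the 10 genes, 1 of the 5 genes tested rose and 4 fell, NFIL3 among them, where 33% of all genes tested rose and 32.6% fell. The same background shares stand beside the counts of the other lists. BHLHE40 (DEC1), which represses the activator at E-boxes, rose 1.85-fold from 1037 and 1083 raw counts to 1955 and 2099 (log2 change 0.89, edgeR adjusted P = 3.76e-11). Its paralog BHLHE41 (DEC2) fell with a log2 change of -0.30 (edgeR adjusted P = 0.0125). The largest fall was that of TIMELESS (log2 change -1.67), and in mammals it is chiefly known for work at the replication fork. Its partner there, TIPIN, fell with a log2 change of -0.30.

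Of the 20 clock kinases, phosphatases, and ubiquitin ligases tested, 3 rose, 5 fell, and 12 were not called, with a median log2 change of -0.09. CSNK1A1 (casein kinase 1α) and PPP1CC (a catalytic subunit of protein phosphatase 1) fell, with log2 changes of -0.66 and -0.78. CSNK1D and CSNK1E, which phosphorylate PER proteins, had log2 changes of 0.26 and 0.12, and only CSNK1D of them passed the test (edgeR adjusted P of 0.00183 and 0.137). The 12 corepressors and chromatin partners tested had 5 higher and 3 lower genes and a median of 0.0074, with WDR5 at 0.52 and EZH2, a histone methyltransferase that is also high in dividing cells, at -1.82. Of 16 clock output genes, 8 rose and 6 fell, with a median of 0.22. Those past 0.5 in size were ABCB1 (2.13), CES2 (1.13), POR (0.82), PPARA (0.73), UPP1 (0.72), and KLF10 (0.59) upward, and CDKN1A (-0.53), NAMPT (-0.56), and KLF9 (-0.79) downward, all as log2 changes. The value of ABCB1 rests on few reads, with 13 and 17 raw counts at 6 h and 82 and 54 at 24 h (standard error 0.299). In the 59 genes of the 6 wider lists together, 20 rose and 21 fell, with a median log2 change of -0.05. These counts are close to the background shares of all genes tested.

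**Figure D4:**
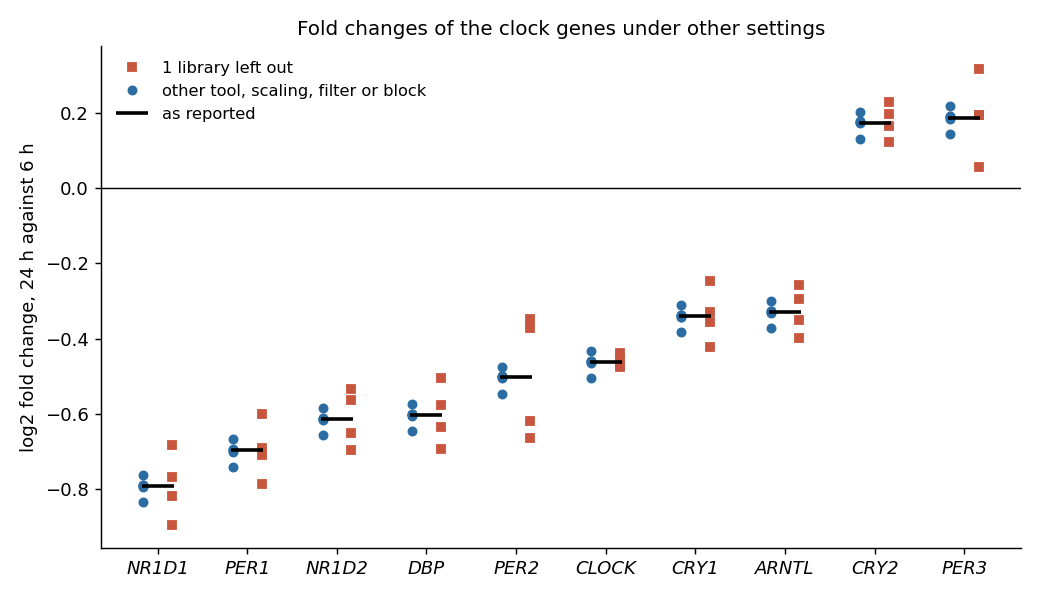
Log2 fold change between 24 h and 6 h (y axis) of the 10 clock genes as reported (black bar), with another tool, scaling, filter, or the replicate block (blue), and with 1 library left out (red). Under these settings the values of NR1D1 lie between -0.90 and -0.68, and no gene changes its sign.

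The direction of all 10 genes was kept under the 11 alternatives run. The cutoffs of the study, 1 of these, used the same fit and could not change a direction. With each library left out in turn, NR1D1, PER1, NR1D2, DBP, and CLOCK stayed past the adjusted P threshold, with at most 4.79e-05, 7.06e-06, 4.68e-06, 3.63e-05, and 0.000203 from edgeR. In these fits 1 time point holds 1 library, which is assumed to vary like the others. ARNTL, CRY1, and PER2 each lost their call without at least 1 library, as given above. Across these fits, the log2 changes lay between -0.40 and -0.26 for ARNTL, -0.42 and -0.25 for CRY1, and -0.66 and -0.35 for PER2.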

How the data were processed

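RNA from 4 libraries of BLU6864-treated TPC1 cells was sequenced by the authors, who aligned reads with STAR (2.3 in the processing notes, another release in the methods) to hg19. The counting program is not given in the sources used here. The authors deposited raw counts per gene for 20372 genes, and a normalized signal, each count divided by 1 DESeq2 size factor per library, which was not used. Their DESeq2 fold changes and P values were not used either. The number of per-sample columns not matched to a library was 0.

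Raw counts were filtered with filterByExpr, which kept 12876 genes and 99.97% of counts, scaled by TMM, and tested with edgeR 4.0.16 (quasi-likelihood, R 4.3.3) with time as the factor. Standard errors and 95% intervals came from the F statistic. Lengths were those of Ensembl canonical transcripts in GENCODE v44, matched by identifier. Promoters came from RefSeq (GRCh38.p14), and no coordinates were moved between builds. Alternatives were DESeq2 1.42.0, 2 other scalings, 2 other filters, the replicate block, the cutoffs of the study, and each library left out. The procedure was run on simulated data with far fewer changed genes than were called here, so its error rate in these data was not measured. Plots used matplotlib 3.10.9.

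All 10 clock genes were named. Other clock genes were named if called with an absolute log2 fold change over 0.5, or as paralogs, and a few that met this rule are not reported here. BHLHE41, TIPIN, CSNK1D, and CSNK1E were named after their values were seen. The clock genes, the lists, and the tests were chosen with earlier results of these data known. Within each time point, the pair differed beyond counting noise (chi-square per degree of freedom 6.67 at 24 h and 8.66 at 6 h) and were counted as separate. Groups of 2 libraries were not tested for outliers.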

Additional observations from a re-analysis of the deposited data

How the results depend on the processing

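Of 110 values of the 10 clock genes under 11 alternatives, 99 kept their direction and their side of the threshold, 9 kept the direction but no longer passed, 2 newly passed, and 0 turned. With the cutoffs of the study, 4 genes were lower in place of 8, without CLOCK (-0.46), ARNTL (-0.33), PER2 (-0.50), and CRY1 (-0.34). Of the wider clock genes, 11 were higher and 11 lower in place of 20 and 21. Of all 12876 genes tested, 2238 were higher and 2278 (17.7%) lower at these cutoffs. All these values come from the same fit, so the stricter cutoffs alone made this difference, and no direction could turn there. With DESeq2, the log2 change of PER2 was -0.50 (adjusted P = 0.122). DESeq2 called 7 genes lower, where 28% of all genes tested were lower. The cause was not tested.

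The labels number the libraries 1 and 2 within each time point. The correlation of the deviations of same-numbered libraries across genes was 0.0844. This 1 value cannot show whether same-numbered libraries shared a culture or a preparation. With the replicate block, 1 clock gene, PER3 (0.19), was called higher, and it changed no other call of the 10.

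Across the fits that left out 1 library, the log2 fold changes lay between -0.66 and -0.35 for PER2 and -0.42 and -0.25 for CRY1. They lay between -0.40 and -0.26 for ARNTL and 0.0574 and 0.32 for PER3. Each of these fits has fewer libraries. The scalings moved the median of all genes tested to 0.0326 with the upper quartile and to -0.0398 with library size alone. PER2 had the fewest counts of the 10 genes, at most 111 in a library, and the largest standard error, 0.186. The effect of depth was not tested.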
